A study of Caenorhabditis elegans with 2 samples.

Results

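The regions described here are the next-strongest candidate binding regions of the transcription factor SNPC-4 in Caenorhabditis elegans, those that follow directly after the thresholded peak list when candidates are ordered by signal. They were chosen from the list of 30000 candidate regions called on the pooled reads of both replicates. A region was a member if its pooled signal rank came after the last thresholded peak and no later than 6000, and if it lay on a nuclear chromosome and overlapped no thresholded peak. That list had been kept by the authors after an irreproducible discovery rate (IDR) filter, which asks whether regions rank alike in replicate lists. Of the 3050 entries in these ranks, 281 overlapped a thresholded peak and 0 were mitochondrial, which left 2769 members, or 9.23% of all candidates. The summits of the thresholded list were exactly the strongest summits of the pooled list, so the members began where that list ended. The comparison regions were the 23284 nuclear candidates ranked after 6000 that overlapped no thresholded peak, called the later ranks below.

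SNPC-4 is a subunit of SNAPc, the complex that binds promoters of small nuclear RNA (snRNA) genes and brings RNA polymerase II or III to them. In the worm the complex also acts at spliced leader (SL) RNA genes and, with germline partners, at the genes of piRNAs, the small RNAs that guide silencing of foreign sequence in the germline. Transfer RNA (tRNA) genes, transcribed by RNA polymerase III, carry their promoter inside the gene as an A box and a B box. SNPC-4 is also known at tRNA genes of the worm.

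All samples were whole hermaphrodites of strain YL551 at the young adult stage, 60 hours after synchronisation as starved L1 larvae. The strain stably expresses SNPC-4 with a C-terminal tag that contains GFP, and chromatin was recovered with an antibody against GFP. There was 1 group with 2 biological replicates, and no untagged, mutant or treated group was analysed here, so no comparison between conditions exists. Whole animals mix germline and somatic tissue, and the tissue of origin of a region cannot be told apart. Depth is unknown, since the lists give no counts of reads, and intervals below are exact 95% binomial intervals (Clopper-Pearson) that cover counting error only. Coordinates are 1-based in build ce11, the same assembly as WBcel235.

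A few members show where summits lay relative to RNA genes, and each is given as the summit base with 50 bases to either side, on the strand of the gene, from the RefSeq WBcel235 genome. Capitals mark bases of the annotated gene and lower case marks its surroundings. K09B11.16 and C05G6.4 are snRNA genes, and the bases shown are chrIV:13443678-13443778, plus strand, and chrIV:624097-624197, minus strand. C28G1.t4 is a glycine tRNA gene, shown at chrX:8838310-8838410, minus strand, and F59C12.t1 is a valine tRNA gene, shown at chrX:16590322-16590422, plus strand. The microRNA gene mir-4934 is shown at chrIV:9825410-9825510, minus strand. K09B11.16, C28G1.t4 and mir-4934 had the strongest member of their class, and the other two were added after their values had been seen, to show a summit inside a gene and a summit at a gene's start.
K09B11.16: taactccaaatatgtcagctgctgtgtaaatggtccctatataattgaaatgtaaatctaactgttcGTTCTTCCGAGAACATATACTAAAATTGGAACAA
C05G6.4: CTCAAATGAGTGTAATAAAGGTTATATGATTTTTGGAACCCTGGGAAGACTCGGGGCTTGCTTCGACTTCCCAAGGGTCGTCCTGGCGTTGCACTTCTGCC
C28G1.t4: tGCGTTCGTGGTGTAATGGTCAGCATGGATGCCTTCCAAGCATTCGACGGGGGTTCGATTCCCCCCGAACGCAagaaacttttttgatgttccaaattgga
F59C12.t1: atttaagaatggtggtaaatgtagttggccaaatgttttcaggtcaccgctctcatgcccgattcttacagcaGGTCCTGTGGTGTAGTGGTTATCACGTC
mir-4934: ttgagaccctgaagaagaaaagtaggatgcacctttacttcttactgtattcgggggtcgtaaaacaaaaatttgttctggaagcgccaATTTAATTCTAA

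The summit of K09B11.16 lay 17 bp before the gene's 5' end, so the run crosses from upstream sequence into the snRNA. The C05G6.4 summit lay 122 bp past the 5' end, and all bases shown are inside the annotated gene. The C28G1.t4 run holds the whole tRNA gene, including the letters GTTCGATTC, which match the core of the B box as searched below. The F59C12.t1 summit lay 23 bp before the tRNA, and the mir-4934 summit 39 bp before the microRNA gene.

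Members were selected on pooled signal, a score from the authors' peak caller, and it is therefore given as a description alone. It ran from 84.4 down to 50.6 with a median of 62.0, against a median of 140 at thresholded peaks and 23.6 in the later ranks. Neither end of the rank range fell at a gap in the values. The 3 entries just above the members had signals of 84.5, 84.5 and 84.4, and the first 3 members all had 84.4. At the lower end the last 3 members and the first 3 entries beyond them all had 50.6. The deposited -log10 q-value was at its ceiling of 3.90 in 935 members (33.8%), all at rank 3992 or stronger, and it fell to 1.65 at the weakest members. A width of 456 bp was shared by 2751 members (99.3%). Members that overlap one another merged into 2666 separate regions covering 1258 kb.

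Because the score depends on depth, the signal of a member in a replicate is given below as a relative signal. This is the signal of the strongest entry of that replicate that overlaps the member, divided by the replicate's median at thresholded peaks, which was 72.2 in replicate 1 and 80.2 in replicate 2. A relative signal of 1 is thus that of the median thresholded peak.

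The members were close to RNA genes and to protein-coding 5' ends more often than the later ranks, with tRNA genes furthest from the later ranks and piRNA genes the one class with members that was rarer. A summit counted as at an RNA gene when it lay within 250 bp of it, and at a protein-coding gene when it lay within 500 bp of an annotated 5' end. By this rule 81 members (2.93%, interval 2.33 to 3.62) were at a tRNA gene, against 0.382% of the later ranks and 9.71% of thresholded peaks. Protein-coding 5' ends held 1253 members (45.3%, interval 43.4 to 47.1), against 29.0% of the later ranks and 43.1% of thresholded peaks. No class was near for 1263 members (45.6%), against 64.6% of the later ranks and 36.3% of thresholded peaks. The members thus stood between both lists for tRNA genes. For protein-coding 5' ends their interval overlapped that of the thresholded peaks, 41.3 to 44.9. Regions at a coding 5' end and at no RNA gene made up 41.1% of all members (interval 39.2 to 42.9). They made up 35.0% of all thresholded peaks (interval 33.3 to 36.8) and 27.2% of all later ranks. Regions at any RNA gene stay in these totals, with 13.3% of members, 28.7% of thresholded peaks and 8.20% of later ranks. The 3 shares therefore do not compare the lists among regions away from RNA genes.

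**Figure D1:**
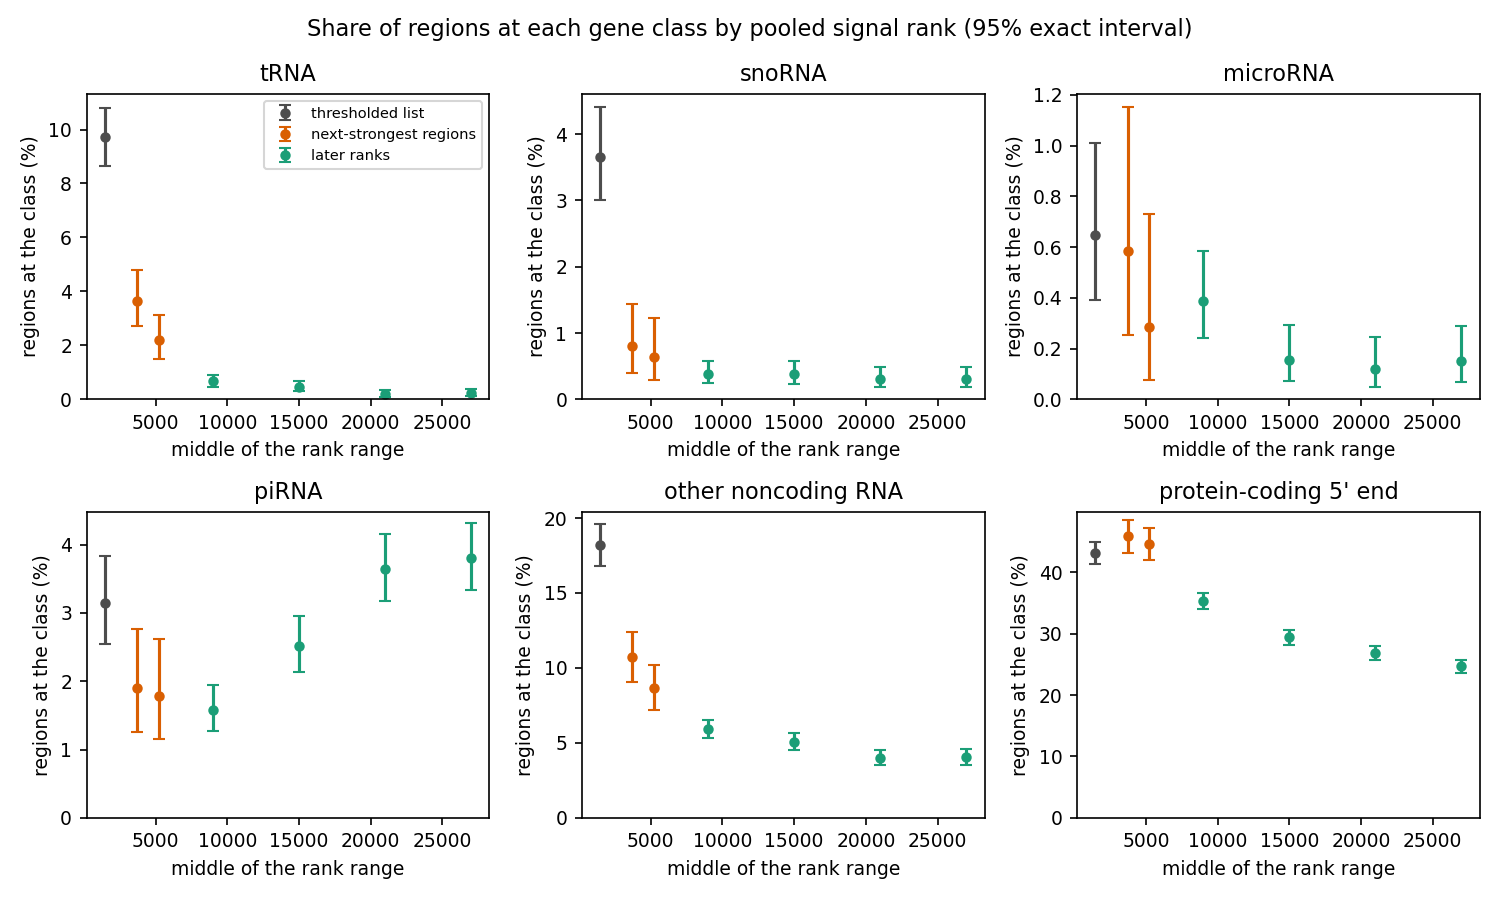
Each panel plots the percentage of regions at 1 gene class against the middle of a pooled signal rank range, with exact 95% intervals as bars, for the thresholded list (grey), the members in a stronger and a weaker portion of equal rank ranges (orange) and later ranks (green). The tRNA share falls from 9.71% to 3.65% and 2.21% within the members and to 0.668% just after them, whereas the coding share stays near 45% through the members before falling to 35.3%.

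The tRNA share was lower at weaker ranks. It was 3.65% in the stronger portion of the members, the first of 2 equal rank ranges, and 2.21% in the weaker portion, with intervals that overlapped (2.72 to 4.79 and 1.51 to 3.13). The next ranks, up to 12000, followed with 0.668%, below the interval of the weaker members. Protein-coding 5' ends stayed level across the members, with 45.9% in the stronger portion and 44.6% in the weaker. The next ranks, up to 12000, held 35.3% at coding 5' ends, and the last 6000 ranks held 24.7%.

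Few members were at snRNA genes, the class for which SNAPc is named. There were 3 (0.108%), with an interval of 0.0223 to 0.316 that included the 0.0472% of the later ranks, against 2.90% of thresholded peaks. K09B11.16 had a pooled signal of 66.6, with a relative signal of 0.377 in replicate 1 and 0.494 in replicate 2. C05G6.4 had 54.3 pooled, with 0.540 and 0.459 in the replicates. T11F9.15, on chromosome V, had 66.3 pooled, with 0.473 and 0.854, and its summit lay 354 bp past the gene's 5' end in a region 116 bp wide, in an exon of a protein-coding gene. Its matched entries in both replicates also overlapped a thresholded peak, so its relative signals may be that peak's. So 1 of the 3 summits was just upstream of its gene and 2 were past the 5' end. Of 99 annotated snRNA genes, 65 had a thresholded summit, and the members added 3 of the remaining 34 (8.82%, interval 1.86 to 23.7). The snRNA genes are a family of similar copies, so which copy the reads came from is uncertain.

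No member was at an SL RNA gene, the source of the leader that is spliced onto worm messenger RNAs, and none was at a 5S ribosomal RNA gene. For each class, 0 of 2769 members allows a share of up to 0.108% by the limit of 3 counts, and the upper bound of the exact interval is 0.133%. The SL RNA share was also 0% in the later ranks and was 0.718% among thresholded peaks, and the 5S share was 0.00859% in the later ranks and 0.0684% among thresholded peaks. Of 30 SL RNA genes 17 had a thresholded summit, and the other 13 had no summit near them among the members or the later ranks.

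As a share of their class, tRNA genes gained more from the members than any other RNA class. Of 612 tRNA genes, 316 (51.6%) had a thresholded summit, and 89 more had a member summit within 250 bp, which is 30.1% (interval 24.9 to 35.6) of the 296 tRNA genes without a thresholded one. Together the lists reached 405 tRNA genes (66.2%), a further 66 (10.8%) had a summit in the later ranks alone, and 141 had none. Since tRNA genes occur as near-identical copies, the assignment to single genes is uncertain. The share of tRNA genes newly reached was nearly equal on the X chromosome, with 39 of 130 (30.0%, interval 22.3 to 38.7), and on the autosomes, with 50 of 166 (30.1%, interval 23.3 to 37.7). It was also close for tRNA genes inside protein-coding genes, at 46 of 144 (31.9%), and outside them, at 43 of 152 (28.3%).

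By amino acid the newly reached share ranged widely, on small numbers. Histidine tRNA genes had a thresholded summit in 4 of 20 cases, and 9 of the remaining 16 (56.2%, interval 29.9 to 80.2) had a member. Alanine tRNA genes had a thresholded summit in 24 of 34 cases, and 0 of the remaining 10 had a member (upper bound of the interval 30.8%). Asparagine tRNA genes also had 0 of 9, with an upper bound of 33.6%. The intervals of histidine and alanine overlapped narrowly, and these extremes were picked from 22 groups after the values had been seen.

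**Figure D2:**
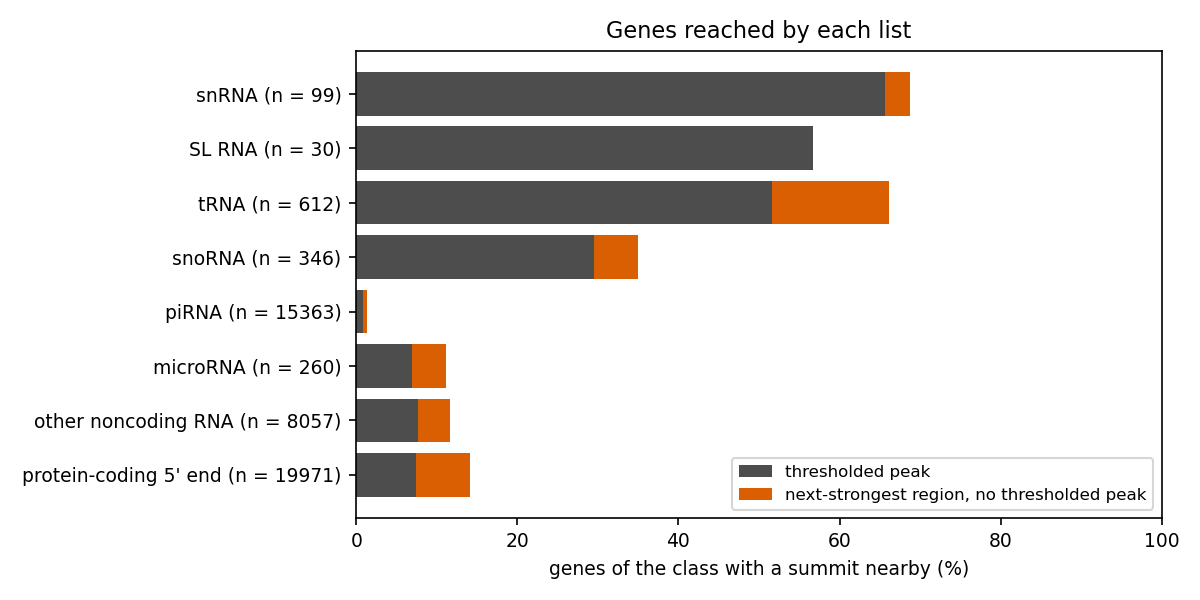
Bars give the percentage of annotated genes of each class with a thresholded summit nearby (grey) and, stacked on it, the percentage with a member summit and no thresholded one (orange); n is the number of genes, and the 16 genes of 5S rRNA are left out. The tRNA bar grows from 51.6% to 66.2%, and the SL RNA bar has no orange segment.

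The 3 strongest tRNA members were C28G1.t4, F59C12.t1 and F33D11.t2, an arginine tRNA gene. C28G1.t4 had a pooled signal of 84.2, with a relative signal of 0.663 in replicate 1 and 0.418 in replicate 2. F59C12.t1 had 83.9 pooled and 0.482 in replicate 2, with no overlapping entry in replicate 1. Its region, chrX:16590352-16590477, was 1 of 18 members (0.650%) narrower than 456 bp, which leaves less of it for an entry to overlap. F33D11.t2 had 83.8 pooled, with 0.400 and 0.754. Each of them was thus uneven between the replicates, with replicate 1 higher at C28G1.t4 and replicate 2 higher at F33D11.t2, while F59C12.t1 was found in replicate 2 alone. Over all 81 tRNA members, the median relative signal was 0.430 in replicate 1 and 0.435 in replicate 2. Of these members 32 (39.5%) were on X, which holds 276 of the 612 tRNA genes. A protein-coding 5' end was also near for 19 (23.5%), against 18.7% of thresholded peaks at tRNA genes.

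Nearly all tRNA members lay within 150 bp of the start of the gene, as did the thresholded peaks there. Summits were upstream of the tRNA in 36 of 81 cases (44.4%, interval 33.4 to 55.9), against 38.0% of thresholded peaks and 31.5% of later ranks at tRNA genes. The median member summit was 29 bp past the 5' end of the tRNA, between 13 bp for thresholded peaks and 45 bp for later ranks. Within 150 bp of the 5' end lay 79 of 81 members (97.5%), against 94.4% of thresholded peaks and 73.0% of later ranks at tRNA genes. The tRNA share depended on which list was ranked. Ranking replicate 1 or replicate 2 alone gave 2.33% and 2.46%, and the ratio to the later ranks, 7.65 in the pooled ranking, became 4.60 without replicate 2 and 5.16 without replicate 1. It was 3.88 when summits up to 1000 bp from a gene were counted.

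The core of the B box, searched as GTTCGANNC on both strands within 100 bp of the summit, was present at 98 members (3.54%), against 1.72% of the later ranks and 8.10% of thresholded peaks. Windows centred 500 bp to either side of the members held it in 1.43% of cases. At tRNA members the letters were present in 47 of 81 cases (58.0%, interval 46.5 to 68.9), against 64.4% of thresholded peaks at tRNA genes. Later ranks at tRNA genes held the letters in 43.8% of cases, with an interval (33.3 to 54.7) that overlapped that of the members. Members away from tRNA genes held them in 1.90% of cases, against 1.56% for such regions in the later ranks, with overlapping intervals (1.42 to 2.49 and 1.40 to 1.72).

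At small nucleolar RNA (snoRNA) genes, whose RNAs guide the modification of ribosomal RNA, the members did not keep the position of the thresholded peaks. There were 20 members (0.722%, interval 0.442 to 1.11) at 19 snoRNA genes, against 0.344% of the later ranks and 3.66% of thresholded peaks. The next ranks, up to 12000, held 0.387%, with an interval (0.243 to 0.585) that overlapped that of the members. Thresholded summits lay upstream of the snoRNA in 84.1% of cases (interval 75.8 to 90.5), with a median of 47 bp before the 5' end. Member summits lay upstream in 8 of 20 cases (40.0%, interval 19.1 to 63.9), with a median of 30.5 bp past the 5' end, and the later ranks gave 36.2%. Of the 3 strongest, F37A8.7 had its summit 227 bp past the 5' end, Y71D11A.7 57 bp before it and F37F2.4 230 bp before it. Their relative signals in replicates 1 and 2 were 0.491 and 0.558 at F37A8.7, 0.411 and 0.587 at Y71D11A.7, and 0.457 and 0.651 at F37F2.4, higher in replicate 2 each time. The share of snoRNA members depended on distance and was 0.397% within 100 bp and 2.06% within 1000 bp, while the ratio to the later ranks stayed between 1.85 and 2.10.

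**Figure D3:**
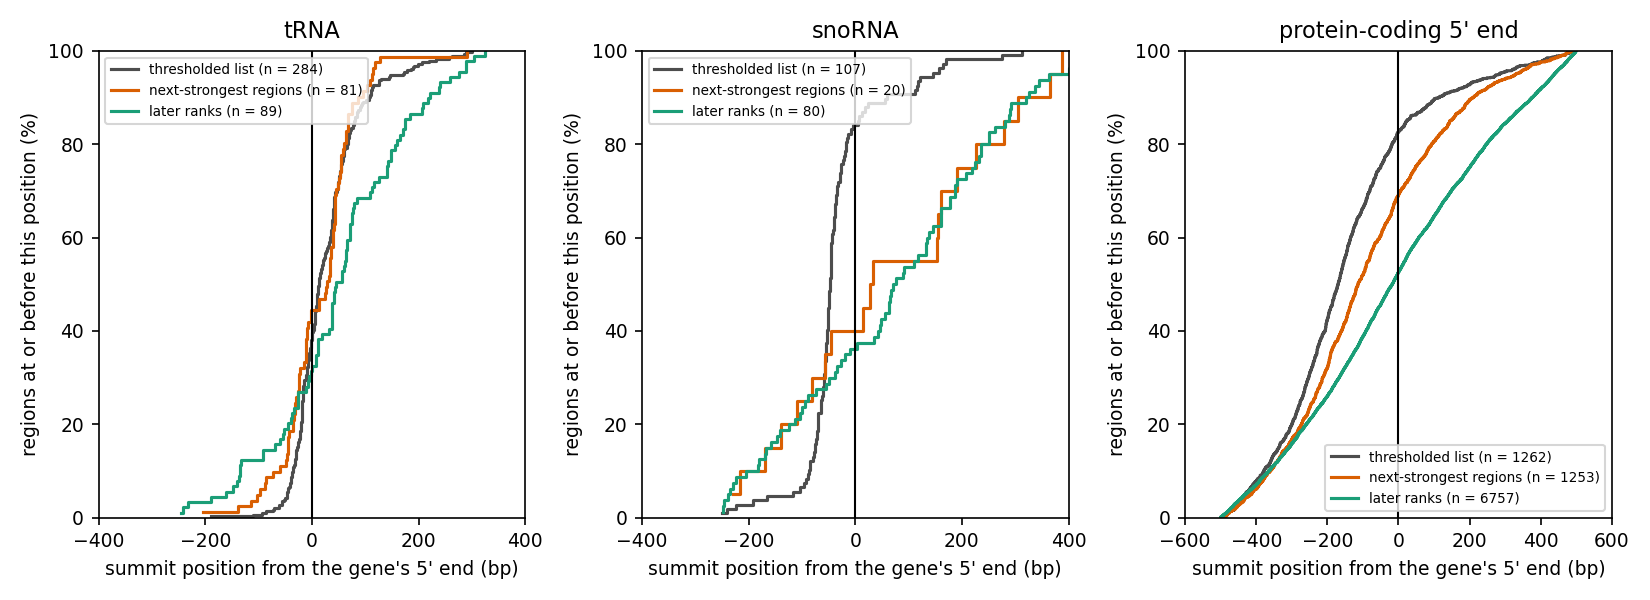
Curves give the cumulative percentage of summits (y axis) at or before each position relative to the gene's 5' end in bp (x axis, negative values upstream) for thresholded peaks (grey), members (orange) and later ranks (green). At tRNA genes nearly all members, like the thresholded peaks, lie within 150 bp of the 5' end. At snoRNA genes the members follow the later ranks, and at protein-coding 5' ends they run between both other lists.

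The piRNA genes were the class with fewer members than later-rank regions. They held 51 members (1.84%, interval 1.37 to 2.41), against 2.90% of the later ranks (interval 2.69 to 3.12) and 3.14% of thresholded peaks. The share was not a steady trend, since the next ranks, up to 12000, held 1.58% and the last 6000 ranks held 3.80%. Of the 51 members, 33 (64.7%) were on chromosome IV, where the worm's piRNA genes are clustered, against 17.4% of all members. Of the 15363 piRNA genes, 11534 lie in 1 stretch of that chromosome and 2807 in another. The genes themselves are thus more concentrated on chromosome IV than these members were. The piRNA-rich stretches of chromosome IV held 29.5% of the members on that chromosome (interval 25.4 to 33.8), against 31.0% of later ranks and 46.6% of thresholded peaks. The stretch at chrIV:13500001-17300000 held 17.6% of members, 17.9% of later ranks and 32.6% of thresholded peaks. At chrIV:4800001-7000000 the shares were alike, at 11.8%, 12.7% and 12.8%. The members were thus not concentrated in the former stretch as the thresholded peaks were. Of 15363 piRNA genes, 80 had a member and no thresholded summit, and neighbouring piRNA genes can share 1 summit.

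The strongest piRNA members were at 21ur-12750, 21ur-11585 and 21ur-4573. The first had a pooled signal of 82.9, with a relative signal of 0.601 in replicate 1 and 0.614 in replicate 2. The second had 80.2, with 0.612 and 0.543, and the third 79.5, with 0.557 and 0.534, so all 3 were nearly even between the replicates. The piRNA members' summits had a median position 80 bp before the piRNA, and 64.7% were upstream (interval 50.1 to 77.6), against 27.2% of thresholded peaks and 43.1% of later ranks at piRNA genes. The letters CTGTTTCA, the core of the motif upstream of worm piRNA genes, were present within 100 bp of the summit at 30 members (1.08%), against 1.62% of the later ranks, 0.820% of thresholded peaks and 1.73% of windows 500 bp away from the members. At piRNA members they were present in 6 of 51 cases (11.8%, interval 4.44 to 23.9). At piRNA genes the later ranks held them in 20.9% of cases, with an overlapping interval (17.9 to 24.2), and thresholded peaks in 1 of 92 (1.09%). The absence of the letters from a window says nothing on the factor.

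MicroRNA genes held 12 members (0.433%, interval 0.224 to 0.756) at 11 genes, against 0.202% of the later ranks and 0.649% of thresholded peaks. The share was 0.585% in the stronger portion of the members and 0.286% in the weaker. The next ranks, up to 12000, held 0.387%, with an interval (0.243 to 0.585) that overlapped that of the members. The strongest member was at mir-4934, with 84.0 pooled and a relative signal of 0.683 in replicate 1 and 0.572 in replicate 2. It was followed by mir-8209 (0.539 and 0.474), mir-273 (0.545 and 0.494, with 2 pooled summits that share these replicate entries), mir-239.2 (0.535 and 0.515) and mir-8193 (0.546 and 0.401). Replicate 1 had the higher relative signal at each of these 5 genes. The others were mir-1819, mir-2219, mir-354, mir-60, mir-48 and mir-4813, of which mir-48 belongs to the let-7 family that times larval development. At mir-48 the summit was 197 bp upstream, with 0.341 and 0.428. Among these other genes replicate 2 was the higher one, except at mir-354 (0.549 and 0.321). Summits were upstream in 7 of 12 cases, and ranking replicate 1 alone left 6 regions at microRNA genes and a ratio to the later ranks of 1.42 in place of 2.15.

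The remaining annotated noncoding RNA genes held 267 members (9.64%), against 4.75% of the later ranks and 18.2% of thresholded peaks. Of these, 206 were at no other RNA class, since noncoding genes are also annotated over tRNA genes. With each region given to 1 class the share was 7.44% of members (interval 6.49 to 8.48), against 4.34% of the later ranks. Thresholded peaks then had 8.65%, with an interval (7.65 to 9.72) that overlapped that of the members. The 3 strongest were at ZC518.6 (0.532 and 0.658 in replicates 1 and 2), M03A8.6 (0.374 and 0.700) and F42G8.16 (0.522 and 0.600). Replicate 2 was higher at each of them, and M03A8.6 was the least even.

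At protein-coding genes the member summits lay mainly upstream, though less often than the thresholded ones. The median was 114 bp before the 5' end, and 865 of 1253 (69.0%, interval 66.4 to 71.6) were upstream, against 82.6% of thresholded peaks (interval 80.4 to 84.7) and 52.5% of later ranks (interval 51.3 to 53.7). Of 19971 protein-coding genes, 1345 (6.73%) had a member and no thresholded summit within 500 bp of a 5' end. That nearly matched the 1487 genes with a thresholded summit (7.45%). The coding share of members was sensitive to distance, at 13.0% within 100 bp and 59.8% within 1000 bp, with ratios to the later ranks of 1.73 and 1.26 beside 1.56.

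The 5 strongest members at coding 5' ends with no RNA gene nearby were at Y105C5B.11, ced-12, wht-3, lin-49 and dpf-3. The gene ced-12 acts in the engulfment of dying cells, wht-3 encodes an ABC transporter, lin-49 encodes a chromatin regulator, and dpf-3 encodes a dipeptidyl peptidase. Y105C5B.11 had a relative signal of 0.690 in replicate 1 and 0.306 in replicate 2, with its summit 486 bp past the 5' end. The values were 0.379 and 0.706 at ced-12, and 0.322 and 0.657 at wht-3. They were 0.575 and 0.448 at lin-49, and 0.691 and 0.482 at dpf-3. Replicate 1 was higher at Y105C5B.11, lin-49 and dpf-3, and replicate 2 at ced-12 and wht-3.

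Among 18 lists of protein-coding genes, several of general cell machinery had a member at a larger share of their genes than protein-coding genes as a whole, for which the share was 6.73%. Proteasome genes, which encode the complex that degrades tagged proteins, had a member and no thresholded summit in 11 of 33 cases (33.3%, interval 18.0 to 51.8), and another 11 had a thresholded summit. Spliceosome and snRNP protein genes had 8 of 30 (26.7%, interval 12.3 to 45.9). Aminoacyl-tRNA synthetase genes, whose enzymes charge tRNAs, had 7 of 33 (21.2%, interval 8.98 to 38.9). Genes of mitochondrial ribosomal proteins had 15 of 71 (21.1%, interval 12.3 to 32.4), and those of cytoplasmic ribosomal proteins 16 of 78 (20.5%, interval 12.2 to 31.2). With these, only 13 ribosomal protein genes had neither kind of summit, since 49 had a thresholded one and 16 of the other 29 (55.2%) had a member.

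The intervals of translation factors (7 of 39, 17.9%), respiratory chain and ATP synthase genes (10 of 66, 15.2%), chaperones (9 of 61, 14.8%) and histones (11 of 81, 13.6%) also began above 6.73%. Histone genes are near-identical copies in divergent pairs, and neighbouring genes can share 1 summit. The lists of RNA polymerase III (2 of 6), SNAPc and piRNA transcription (3 of 16), Argonautes (3 of 20) and vitellogenins (1 of 6) had intervals that included the background share. Intervals also included the background share for cytochrome P450 genes at 5 of 74 (6.76%), nuclear hormone receptors at 16 of 269 (5.95%), collagens at 7 of 156 (4.49%), homeobox genes at 1 of 64 (1.56%) and major sperm proteins at 0 of 31. The lists were chosen with earlier results of these data known, gene expression was not measured here, and neither length nor crowding of promoters was matched between lists.

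**Figure D4:**
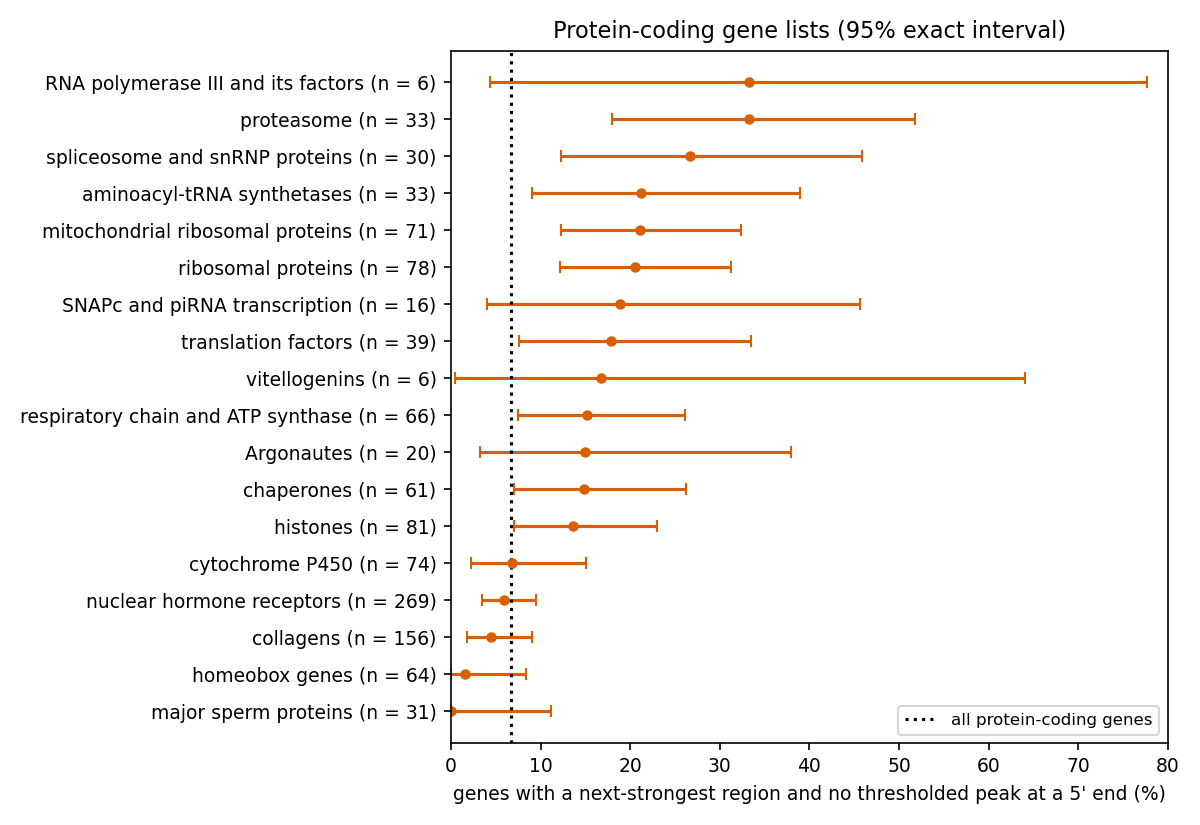
Points give the percentage of genes of each list with a member summit and no thresholded summit within 500 bp of a 5' end, bars give exact 95% intervals and the dotted line marks 6.73%, the share of all protein-coding genes. Proteasome genes stand at 33.3% and ribosomal protein genes at 20.5%, and the intervals of collagens, homeobox genes and major sperm proteins include the line.

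Genes of these lists varied in how even the replicates were. At rps-2, a small ribosomal subunit protein gene, the pooled signal was 83.0, with a relative signal of 0.601 in replicate 1 and 0.552 in replicate 2 and a summit 253 bp upstream. At rpl-35A, for a large subunit protein, it was 83.2, with 0.446 and 0.648. At rps-18 it was 84.0, with 0.637 and 1.13, in a region only 114 bp wide, and the entries matched in both replicates also overlapped a thresholded peak, so these values may be that peak's.

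The proteasome genes rpn-13, rpn-6.1 and pbs-3 had relative signals of 0.623 and 0.489, 0.515 and 0.525, and 0.586 and 0.453 in replicates 1 and 2. The splicing gene prp-38 had 0.526 and 0.529. The member between mrps-18B, for a mitochondrial ribosomal protein, and prp-9, a splicing factor gene, had 0.531 and 0.491, and a single summit served both genes. The member at isp-1, which encodes the Rieske iron-sulfur protein of respiratory complex III, also served the noncoding gene F42G8.16.

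Some members were at genes of the lists of RNA polymerase III, SNAPc and piRNA transcription, and Argonautes, whose intervals included the background share. The largest subunits of RNA polymerase III are encoded by rpc-1 and rpc-2, and neither had a thresholded summit. At rpc-2 the relative signal was 0.504 in replicate 1 and 0.598 in replicate 2, with the summit 41 bp past the 5' end. At rpc-1 the values were 0.281 and 0.525, with the summit 87 bp upstream. At snpc-3.1, which encodes another SNAPc subunit, they were 0.461 and 0.354, with the summit 240 bp upstream. At xnd-1, a germline chromatin factor gene, they were 0.352 and 0.381. At tofu-7, a gene named from a screen for piRNA factors, they were 0.435 and 0.409. The Argonaute genes alg-1 and alg-2, which act with microRNAs, differed between replicates in opposite directions, with 0.633 and 0.351 at alg-1 and 0.285 and 0.639 at alg-2.

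The members at none of the classes included the strongest member of all. That region, at chrX:8089155-8089610, lay outside protein-coding genes and had 84.4 pooled, with a relative signal of 0.709 in replicate 1 and 0.703 in replicate 2. The next, on chromosome V, had 0.479 and 0.555. The third lay in an intron of atf-7, which encodes a transcription factor of the innate immune response, with 0.620 and 0.511. Among the 1263 members at no class, 46.6% lay outside protein-coding genes, 28.7% in introns and 24.6% in exons, whereas the later ranks at no class had 27.4%, 37.5% and 35.1%.

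Support in the single replicates was nearly complete at the level of any entry and much lower at the level of strong entries. Since the pooled list was called on the reads of both replicates, this support is not independent of how the members were chosen. An entry overlapped 97.3% of members in replicate 1, 98.8% in replicate 2 and 96.1% in both, against 71.2%, 75.9% and 53.4% of the later ranks. Every member had an entry in at least 1 of the replicate lists. When only the 6000 strongest entries of each replicate counted, 906 members (32.7%) were present in both, against 2.17% of the later ranks and 96.5% of thresholded peaks. A further 1574 (56.8%) were in 1 replicate and 289 (10.4%) in neither. When only as many of the strongest entries of each replicate counted as the thresholded list holds, 301 members (10.9%) were present in replicate 1, 272 (9.82%) in replicate 2 and 19 (0.686%) in both, against 74.4% of thresholded peaks in both.

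Of those 19, 3 matched a replicate entry that also overlapped a thresholded peak. The other 16 included the strongest member and 1 at a tRNA gene, with 9 at none of the classes. These 16 shared replicate entries in places and came from 13 pairs of entries. The shares at tRNA genes and coding 5' ends varied little with support. Among members in the 6000 strongest of both replicates, 2.65% were at tRNA genes and 45.6% at coding 5' ends, and among those in neither, 3.11% and 44.3%. MicroRNA genes held 0.662% of the former and 0% of the latter, on 6 and 0 members.

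**Figure D5:**
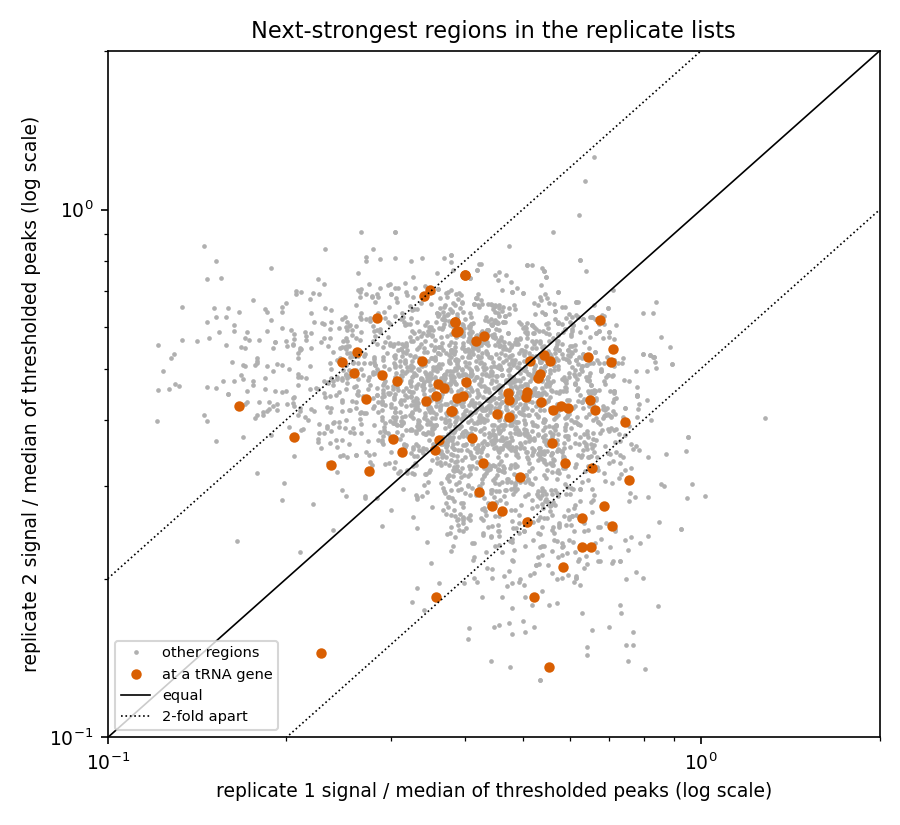
Each point is 1 of the 2660 members with an entry in both replicates, with its signal in replicate 1 (x axis) and replicate 2 (y axis) divided by the median of that replicate's signal at thresholded peaks, both on log scales; members at tRNA genes are orange. Most points lie between the dotted lines that mark a 2-fold difference, and 482 lie outside them.

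The replicates ranked the members differently within their narrow range of pooled signal. Spearman's rho between the relative signals of replicates 1 and 2 was -0.223 over the 2660 members with both, against 0.779 at thresholded peaks and 0.230 in the later ranks. It is a description across regions, and choosing members within a window of pooled signal, to which both replicates contribute, bears on it and on the medians that follow. The median member had a relative signal of 0.433 in replicate 1 and 0.442 in replicate 2, a mean of 0.438 ± 0.00610 (SD, n = 2). Individual members were less even, and 482 of 2660 (18.1%) differed by more than 2-fold, 225 with replicate 1 higher and 257 with replicate 2 higher. The same share was 4.99% at thresholded peaks and 15.1% in the later ranks.

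Along the genome the members were less often on X than the thresholded peaks were. The X chromosome held 12.9% of members (interval 11.7 to 14.2), against 11.9% of the later ranks and 18.8% of thresholded peaks (interval 17.4 to 20.3). The density of members was lowest on X, at 20.1 per Mb, and highest on III, at 35.9 per Mb. The later ranks had the same extremes, with 157 per Mb on X and 306 per Mb on III. Thresholded peaks were also densest on III, at 32.9 per Mb, with 31.0 per Mb on X. Exons of protein-coding genes held 23.1% of member summits, introns 25.5% and the space outside them 51.4%, between thresholded peaks (8.99% in exons and 64.1% outside) and later ranks (34.0% and 31.2%). The median GC content within 100 bp of the summit was 38.8%, between 44.3% at thresholded peaks and 35.8% in the later ranks, and the genome's was 35.4%. Windows with at least 50% repeat-masked bases made up 16.6% of members, against 25.5% of the later ranks. Of the members 7.08% had a summit within 1000 bp of a thresholded peak, against 5.78% of the later ranks, and 16 of the 81 tRNA members (19.8%) did. Without all such members the tRNA share was 2.53% and its ratio to the later ranks 7.92. The part of GC content in the class shares was not tested.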

How the data were processed

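Data were deposited by the authors as narrowPeak lists for 2 biological replicates and their pool, in ce10 and ce11. The labels do not say more on how the replicates were separated. Per the deposited listing, candidate lists were called against a control, which is not analysed here, and the thresholded list derives from them. The sources used here do not name the aligner, the peak caller or the IDR threshold. The authors' signal is a score that depends on depth. Their -log10 q-value is capped and was not used for ranking, and the other deposited unit is the summit offset from the region start. Read counts are not given, so depth and its precision are unknown.

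Entries were ranked by signal with ties in file order. Genes and sequence came from RefSeq WBcel235. The piRNA-rich stretches are neighbouring 100 kb bins that each hold 20 or more piRNA genes, merged where the gap between them was 300 kb or less. Python 3.11.15, numpy 2.4.6, pandas 2.3.3, scipy 1.17.1 and matplotlib 3.10.9 were used, and the interval code was tested on simulated data. No hypothesis test was run, because there is 1 group and regions are not replicates. Genes named were all members at snRNA and microRNA genes, the 3 strongest of each other RNA class, the 5 strongest at coding 5' ends with no RNA gene nearby, the 3 strongest at no class and up to 3 per gene list, not all of which are printed. The members, the gene lists and the rules were chosen with earlier results of these data known. The alternatives were other distances, whole regions, stronger ranks, each replicate alone, 1 class per entry, merged regions, other overlap rules, the ce10 lists and other motif windows.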

Additional observations from a re-analysis of the deposited data

How the results depend on the processing

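No paired analysis was possible because there is 1 group. Shares of members that moved outside the interval of the main value are given for each setting. With 100 bp for all classes they were 0.397% (snoRNA), 0.686% (piRNA), 0.144% (microRNA), 7.95% (other noncoding RNA) and 13.0% (coding 5' ends), and with 1000 bp 2.06%, 4.51%, 0.975%, 16.1% and 59.8%. The piRNA ratio to the later ranks stayed below 1 at both distances, 0.429 and 0.903. Overlap of the whole region with a coding 5' end gave 28.9%. The stronger portion of the ranks gave 3.65% for tRNA genes. One class per region gave 7.44% for other noncoding RNA and 41.1% for coding 5' ends. Ranking a single replicate gave 2.33% to 2.46% for tRNA genes, 7.97% to 8.58% for other noncoding RNA and 41.6% to 42.5% for coding 5' ends. Of these, the higher value for tRNA genes and for other noncoding RNA, both from replicate 2 alone, stayed inside the interval.

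Entries in replicate 1, replicate 2 and both were found for 94.7%, 97.4% and 92.5% of members with 50% overlap of both regions, and for 83.4%, 89.7% and 74.4% with summits within 100 bp. The 6000 strongest entries gave 56.9%, 65.4% and 32.7%, and as many of the strongest as the thresholded list holds gave 10.9%, 9.82% and 0.686%. The stronger portion of the ranks gave 98.7%, 99.3% and 98.0%. The ce10 lists gave 2769 members and 96.2% in both replicates. With 50 bp and 250 bp around the summit, CTGTTTCA was at 0.433% and 3.47% of members and GTTCGANNC at 1.84% and 5.99%. Leaving out members within 1000 bp of a thresholded peak moved no share outside its interval. The cause of these shifts was not tested, though wider or narrower windows hold more or fewer genes by construction. Without read counts, counting error in the signals cannot be given, and a region's rank near either end of the range is uncertain.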
